A study of Mus musculus with 9 samples.

Results

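The genes described here encode 7 ligand-activated nuclear receptors and 2 of their cofactors: the peroxisome proliferator-activated receptors Pparg, Ppara and Ppard, their dimer partners Rxra and Rxrb, the liver X receptors Nr1h2 (LXR beta) and Nr1h3 (LXR alpha), the corepressor Ncor1 and the coactivator Ppargc1b. They were found as every probe of an Illumina mouse beadchip whose annotated symbol, or an older alias of it, named 1 of these 9 genes, which gave 15 of 46237 probes. A probe was kept for testing when its detection p-value was under 0.05 on at least 3 of the 9 arrays. That left 10 of the 15 probes, covering 6 genes, beside 21946 probes in the whole table. Ppara, Nr1h2 and Ncor1 had no probe that passed, and neither did 2 of the 3 Rxrb probes.

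RNA came from lung macrophages sorted on SiglecF and CD11b from female C57/BL6 mice at 8 weeks of age, with 3 arrays in each of 3 groups. The group titled Hom int pop came from Pparg-/-.LysMCre mice and is labelled Pparg deficient. Hom Mph carries the identical Pparg-/-.LysMCre genotype label but is labelled wild type, and Het Mph came from Pparg-/+.LysMCre mice and is also labelled wild type. All 3 groups therefore carry LysMCre, a recombinase under the promoter of the lysozyme M gene, which is active in macrophages and other myeloid cells. The labels do not spell out "int pop", nor whether Hom1 to Hom3 in both homozygous groups stand for shared mice, nor that replicates were separate animals, so the p-values below rest on a spread that may be technical in part or whole.

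PPARs and LXRs sit on DNA as dimers with an RXR, and bind repeats of the hexamer AGGTCA. Without ligand, such dimers recruit corepressors such as NCoR1, and fatty acid or oxysterol ligands exchange these for coactivators. In lung, PPARg (encoded by Pparg) is known as a receptor that developing alveolar macrophages induce and need for lipid handling, while LXRs drive cholesterol efflux genes in macrophages in general.

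The sequences around 3 annotated starts are shown because they belong to the genes whose Hom int pop arrays lay outside all control arrays, in opposite directions. The Pparg windows printed were picked as those that held the hexamer these receptors bind. Windows run from 250 bases before to 50 bases after a start, are RefSeq sequence on build GRCm38.p6, and are printed 5′ to 3′ on the + strand with AGGTCA in capitals.
Pparg, chr6:115360894-115361193: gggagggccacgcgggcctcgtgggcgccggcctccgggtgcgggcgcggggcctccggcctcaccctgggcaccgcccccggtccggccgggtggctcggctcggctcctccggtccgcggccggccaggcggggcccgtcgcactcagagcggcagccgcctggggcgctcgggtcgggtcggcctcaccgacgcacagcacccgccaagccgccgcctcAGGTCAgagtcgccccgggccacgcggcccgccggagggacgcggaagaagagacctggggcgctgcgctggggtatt
Pparg, chr6:115362099-115362398: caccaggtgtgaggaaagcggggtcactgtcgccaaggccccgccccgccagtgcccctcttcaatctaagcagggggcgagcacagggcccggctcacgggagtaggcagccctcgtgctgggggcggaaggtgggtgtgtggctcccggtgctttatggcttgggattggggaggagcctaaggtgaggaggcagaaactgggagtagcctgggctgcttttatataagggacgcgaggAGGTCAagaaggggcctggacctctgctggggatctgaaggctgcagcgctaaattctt
Ppard, chr17:28232504-28232803: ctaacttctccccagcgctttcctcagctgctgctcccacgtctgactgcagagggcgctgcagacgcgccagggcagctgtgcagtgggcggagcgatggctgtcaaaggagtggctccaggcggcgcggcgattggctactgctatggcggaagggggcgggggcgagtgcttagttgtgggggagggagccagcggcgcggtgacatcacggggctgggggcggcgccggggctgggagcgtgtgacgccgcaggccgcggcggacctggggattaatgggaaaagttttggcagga
AGGTCA, searched on both strands, began 28 bases before the start in the upstream Pparg window and 9 bases before it in the other window printed. The remaining Pparg window (chr6:115421816-115422115) and the Ppard window held no match. In all, 14 windows of 8 of the 9 genes were searched, and 3 held the hexamer, the third being an Rxra window (chr2:27709042-27709341) with 2 matches. Of 32851 windows of the same length over all genes, 16.3% held AGGTCA. Its direct repeats with a spacer of 1 base (AGGTCANAGGTCA) or 4 bases (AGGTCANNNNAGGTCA), which overlap the single hexamer by construction, were in 0 of the 14 windows, against 0.0396% and 0.0152% of all windows. These matches describe letters and not binding.

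Some facts of the whole set touch the values below. The sample titles hold a number that is read here as the chip, though the labels do not call it so. All 3 Hom int pop arrays carried 1 such number and all 6 control arrays another. Chip and group thus cannot be told apart in any comparison of Hom int pop, while Hom Mph and Het Mph shared a chip number. Median unnormalized signal per array ran from 146.2 to 184.2 in Hom int pop, 145 to 241.7 in Hom Mph and 198.4 to 290.3 in Het Mph, and 37.8% to 42.5% of probes were detected. Hom int pop replicates 1 and 2 and Hom Mph replicate 1 stood apart, having the lowest median signals and the lowest median correlations with the other 8 arrays (0.804 to 0.817, against 0.829 to 0.858 for the other 6 arrays). Of 12 alveolar macrophage markers, 10 were on the array and 9 passed. Their mean log2 signal ran from 8.08 to 8.34 in Hom int pop, 9.15 to 9.22 in Hom Mph and 9.41 to 9.72 in Het Mph, and Fabp4 was not detected in any group. The 9 did not move alike. Against both controls 8 were lower and 1 higher, with a median log2 difference of -0.37. Krt19 was at least 15.7-fold lower and Marco differed by -2.47. Mrc1 differed by -0.37, Car4 by -0.36, Chil3 by -0.17 and Cd9 by -0.09, while Itgax was higher by 0.54 (limma adjusted p = 0.35). Krt79 and Krt19 were not detected in Hom int pop, and Krt79 was not detected in Hom Mph either. Markers of monocytes and interstitial macrophages (8 of 12 passed) averaged 7.60 to 8.99, 7.44 to 8.02 and 6.45 to 6.67 in Hom int pop, Hom Mph and Het Mph, and neutrophil markers (3 of 7 passed) 6.43 to 6.65, 5.92 to 6.43 and 4.83 to 5.37. Among them, C1qc and Itgam were not detected in either control group, and Cxcr2 and Retnlg not in any group. C1qb, Ccr2, Mmp8 and S100a8 were not detected in Het Mph, and S100a9 was not detected in Hom int pop or Het Mph. The 3 neutrophil markers that passed were split. Against both controls Mmp8 was at least 3.11-fold higher (limma adjusted p = 0.0225), S100a8 differed by 1.32 (0.152) and Mmp9 by -0.33 (0.761). Mmp8 and S100a8 overlapped Hom Mph, from which Mmp8 differed by 0.31 (adjusted p = 0.896). Hom Mph was at least 6.31-fold above Het Mph at Mmp8 (adjusted p = 0.0245). Siglecf, whose protein the sort used, differed by -1.95 from both controls (limma adjusted p = 0.0206). That call held under 17 of 24 alternatives, with an adjusted p of up to 0.554 without the 3 arrays that stood apart and of 0.0549 without the filter, and the part of these marker differences in the receptor values was not tested. In sorted bulk cells, fewer cells of a type and less RNA per cell cannot be told apart.

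Differences between groups were tested with limma over all 21946 passing probes, with p-values adjusted by the Benjamini-Hochberg method and a call at an adjusted p under 0.05. By this test, 0 of the 10 member probes were called for Hom int pop against the mean of both control groups, where 0.706% of all probes were called. The other 3 comparisons also gave 0 calls by limma: against Het Mph (background 0.998%), against Hom Mph (0.169%) and for Hom Mph against Het Mph (0.0228%). At an unadjusted p under 0.05 the member counts were 4, 5, 2 and 1 of 10 in that order of comparisons, against 12.1%, 13.4%, 7.82% and 6.42% of all probes. These counts are of probes, not separate genes. The 4 and the 5 each held all 3 probes of Pparg, annotated to 1 transcript, and Ppard ILMN_1221142. The 5 also held Nr1h3 ILMN_2668472. The 2 were Pparg ILMN_1221060 and Ppard ILMN_1221142, and the 1 was Pparg ILMN_1221893. The 3 Hom int pop arrays lay outside all 6 control arrays at 2 of the 10 member probes, where 6.27% of all probes did so: 1 of Pparg below (2.98% of all probes) and 1 of Ppard above (3.28%). The comparisons of Hom int pop share its 3 arrays, and those against both controls and against either control share control arrays, so they are not independent of each other.

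**Figure D1:**
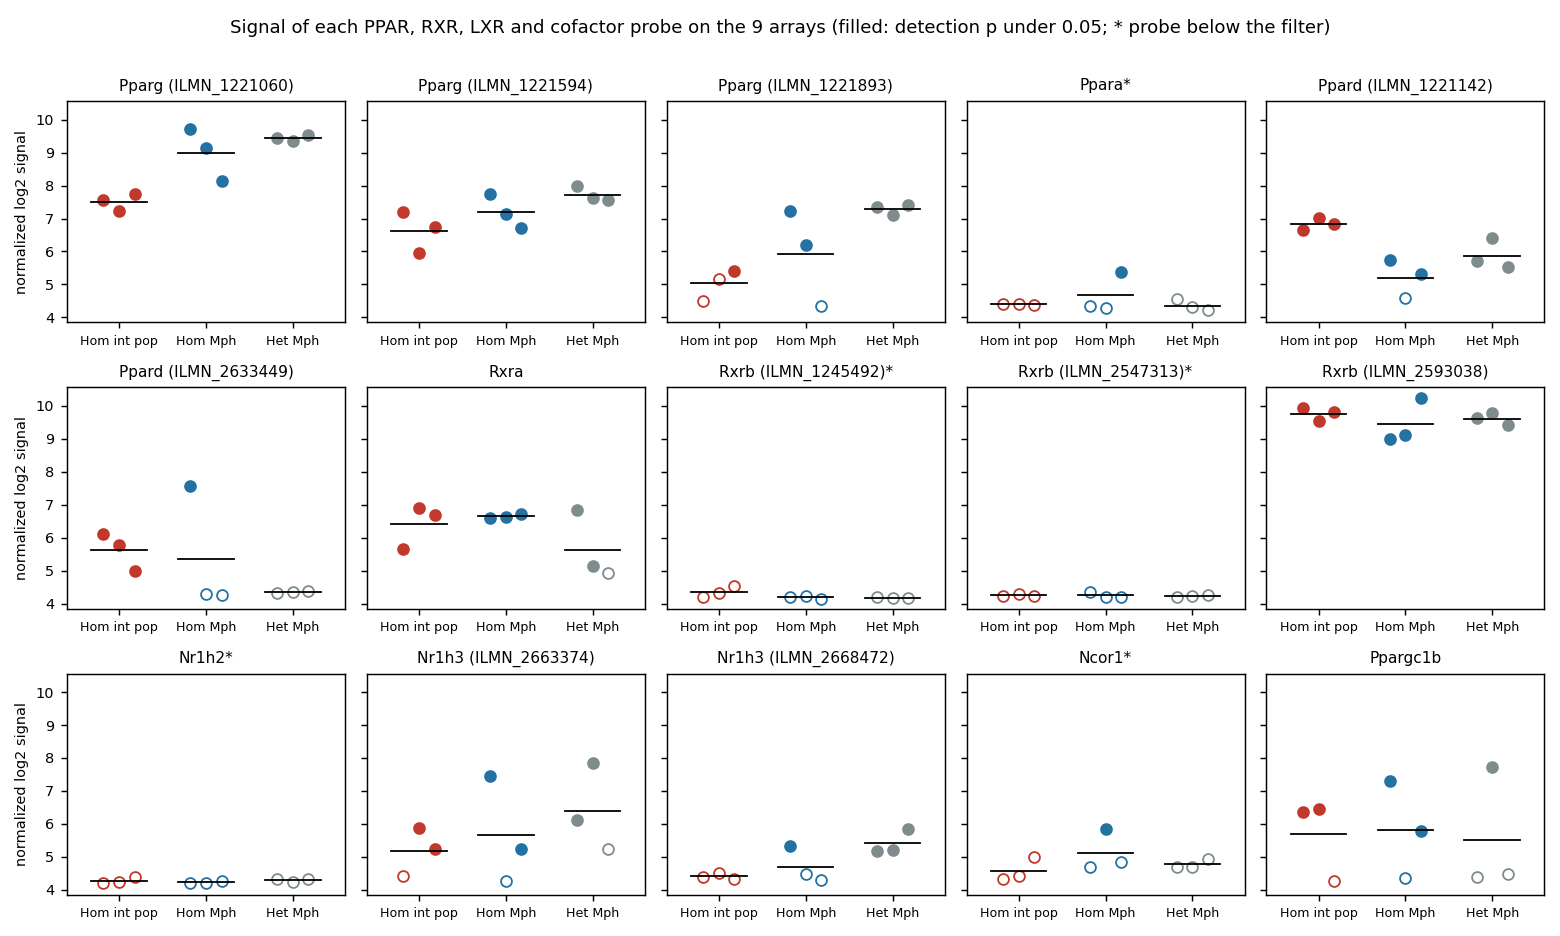
Normalized log2 signal (y axis) of each of the 15 member probes on the 9 arrays, by group (x axis), with a bar at the group mean. Filled points had a detection p under 0.05, and an asterisk marks the 5 probes that did not pass the filter. The 3 Hom int pop arrays of Pparg ILMN_1221060 sit between 7.22 and 7.76, below all 6 control arrays, and those of Ppard ILMN_1221142 sit between 6.66 and 7.03, above all 6.

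Pparg, the receptor that the study targeted, read lowest in Hom int pop at its brightest probe, but the difference missed the threshold. Log2 signal of ILMN_1221060 was 7.57, 7.22 and 7.76 on the 3 Hom int pop arrays, 9.71, 9.15 and 8.13 on the Hom Mph arrays and 9.45, 9.35 and 9.54 on the Het Mph arrays. The probe was above background on all 9 arrays, and the Hom int pop arrays did not overlap either control group. The same held before any normalization, where the signals were 300.9, 279.5 and 351.4 in Hom int pop, 1102, 822.5 and 472.2 in Hom Mph and 897.3, 820.3 and 966.6 in Het Mph. Hom int pop was 3.26-fold lower than both controls, a log2 difference of -1.71 (SE 0.34, 95% interval -2.46 to -0.95, limma adjusted p = 0.0644). An exact two-sided permutation test over the 84 ways to choose 3 of 9 arrays gave p = 0.0119, the smallest it allows, for Pparg and for Ppard below, among the 6 genes so tested. Arrays that do not overlap already make the observed split the most extreme in its direction. The value carries no adjustment over all probes and is no separate support beyond the overlap given above. Against Het Mph the log2 difference was -1.93 (SE 0.39, limma adjusted p = 0.0561), and against Hom Mph it was -1.48 (SE 0.39, adjusted p = 0.294).

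Hom Mph and Het Mph overlapped at this probe, and differed by -0.46 on the log2 scale (95% interval -1.33 to 0.42, limma adjusted p = 0.87). The spread was unequal: the SD was 0.27 in Hom int pop, 0.80 in Hom Mph and 0.09 in Het Mph. Hom Mph replicate 3 was the lowest control array. Without it the difference from both controls was -1.92 with a limma adjusted p of 0.0164, and the probe was then also called against Het Mph (adjusted p = 0.0195). That array also had the highest mean of monocyte and interstitial macrophage markers (8.02) and of neutrophil markers (6.43) within its group, and their part in its Pparg value was not tested.

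The other 2 Pparg probes ordered the group means the same way. ILMN_1221594 had log2 signals of 7.19, 5.97 and 6.74 in Hom int pop, 7.76, 7.13 and 6.72 in Hom Mph and 8.00, 7.62 and 7.56 in Het Mph. Its Hom int pop arrays lay below every Het Mph array but overlapped Hom Mph, and the log2 differences were -0.83 from both controls, -1.10 from Het Mph and -0.57 from Hom Mph (limma adjusted p = 0.37, 0.272 and 0.795). ILMN_1221893 had 4.50, 5.18 and 5.42 in Hom int pop, 7.22, 6.19 and 4.35 in Hom Mph and 7.36, 7.12 and 7.42 in Het Mph. It was detected on 1 of 3 Hom int pop arrays, 2 of 3 Hom Mph arrays and 3 of 3 Het Mph arrays, and Hom Mph replicate 3 had the lowest value of all 9. The log2 differences of this probe were -1.58 from both controls, -2.27 from Het Mph and -0.89 from Hom Mph (limma adjusted p = 0.277, 0.142 and 0.796). Between the controls, Hom Mph minus Het Mph was -1.38 (95% interval -2.76 to -0.0043, not adjusted, limma adjusted p = 0.777). At all 3 Pparg probes Hom Mph replicate 3 was the lowest of its group. All 3 probes are annotated to 1 transcript accession, and the sources used here do not place them inside or outside the deleted exons, so a remaining signal does not check the deletion.

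At the brighter probe of Ppard, the widely expressed PPAR of fatty acid oxidation genes, the normalized signal was highest in Hom int pop, and the difference likewise missed the threshold. This probe, ILMN_1221142, read 6.66, 7.03 and 6.83 in Hom int pop, 5.73, 4.59 and 5.31 in Hom Mph and 5.70, 6.40 and 5.52 in Het Mph. All Hom int pop arrays were above all control arrays, and Hom Mph replicate 2 was the array with no detection. Hom int pop was 2.46-fold higher than both controls, a log2 difference of 1.30 (SE 0.32, 95% interval 0.59 to 2.01, limma adjusted p = 0.125), and did not pass. The differences were 0.97 from Het Mph (adjusted p = 0.3) and 1.63 from Hom Mph (adjusted p = 0.201), and the control groups overlapped (-0.67, adjusted p = 0.829). Before background correction and normalization the groups overlapped, with signals of 206, 260 and 271.9 in Hom int pop, 168.9, 235.2 and 234.2 in Hom Mph and 236.5, 294.4 and 332.8 in Het Mph. With normalization between arrays but no background correction the log2 difference was 0.38, and with background correction but no normalization between arrays it was 1.03. The dimmer Ppard probe, ILMN_2633449, had log2 signals of 6.11, 5.77 and 4.98 in Hom int pop, 7.56, 4.28 and 4.25 in Hom Mph and 4.32, 4.35 and 4.37 in Het Mph. It was detected on all 3 Hom int pop arrays, on Hom Mph replicate 1, where it was highest, and on no Het Mph array. In these processed values Hom int pop was at least 1.65-fold higher than Het Mph at this probe, and overlapped Hom Mph. The fitted log2 difference from Het Mph had a 95% interval of -0.45 to 3.00 (limma adjusted p = 0.493). Before background correction and normalization Hom int pop and Het Mph overlapped here too, with signals of 181.2, 189.5 and 194.6 against 168, 188 and 255.5.

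Ppara, the PPAR best known from liver fatty acid catabolism, was near background throughout. Its probe read 4.41, 4.40 and 4.36 in Hom int pop, 4.35, 4.28 and 5.38 in Hom Mph and 4.56, 4.30 and 4.22 in Het Mph. Detection reached a p under 0.05 on Hom Mph replicate 3 alone (0.0256), so the probe was not tested.

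The RXRs, the obligate partners of both PPARs and LXRs, did not separate the groups. Rxra read 5.66, 6.90 and 6.68 in Hom int pop, 6.59, 6.63 and 6.73 in Hom Mph and 6.85, 5.12 and 4.92 in Het Mph. All groups overlapped, with Het Mph replicate 3 not detected. Hom int pop minus both controls was 0.27 (95% interval -0.73 to 1.27, limma adjusted p = 0.848), and Hom Mph minus Het Mph was 1.02 (-0.14 to 2.18, adjusted p = 0.81). Rxrb was measured by ILMN_2593038, with 9.94, 9.54 and 9.82 in Hom int pop, 8.99, 9.10 and 10.26 in Hom Mph and 9.62, 9.80 and 9.43 in Het Mph. Here Hom Mph replicate 3 was the highest and Hom Mph replicate 1 the lowest array. The log2 difference of 0.23 from both controls had an interval of -0.47 to 0.93 (limma adjusted p = 0.81). The other Rxrb probes, ILMN_1245492 and ILMN_2547313, were detected on 0 of 9 arrays, at log2 signals of 4.15 to 4.54 and 4.19 to 4.35, and ILMN_2547313 carries its symbol from the platform annotation alone.

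Nr1h3, the LXR of macrophages and liver, had its lowest group mean in Hom int pop at both probes, and did not pass the threshold. ILMN_2663374 read 4.41, 5.87 and 5.25 in Hom int pop, 7.46, 4.27 and 5.23 in Hom Mph and 6.12, 7.84 and 5.23 in Het Mph, and was detected on 2 of 3 arrays in every group. The groups overlapped, and the difference from both controls was -0.85 (SE 0.74, 95% interval -2.51 to 0.81, limma adjusted p = 0.686). ILMN_2668472 read 4.38, 4.51 and 4.33 in Hom int pop, 5.32, 4.47 and 4.29 in Hom Mph and 5.18, 5.20 and 5.83 in Het Mph. It was detected on no Hom int pop array, on Hom Mph replicate 1 and on all 3 Het Mph arrays. Against Het Mph, Hom int pop was at least 1.48-fold lower at this probe (limma adjusted p = 0.251), and against both controls the fitted log2 difference was -0.64 (adjusted p = 0.423). Nr1h2, the broadly expressed LXR, had 1 probe, detected on 0 of 9 arrays at log2 signals of 4.20 to 4.38, and its symbol also comes from the platform annotation alone.

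Both cofactors gave little to compare. The probe matched to Ncor1, which the platform lists under the older name 5730405M06Rik, read 4.34, 4.41 and 4.99 in Hom int pop, 4.67, 5.85 and 4.86 in Hom Mph and 4.69, 4.70 and 4.94 in Het Mph, and was detected on Hom Mph replicate 2 alone. Ppargc1b, a coactivator of mitochondrial and fatty acid oxidation genes, read 6.35, 6.46 and 4.26 in Hom int pop, 7.30, 4.37 and 5.77 in Hom Mph and 4.38, 7.71 and 4.47 in Het Mph. Each group held arrays above and below background, and the difference from both controls was 0.03 with a 95% interval of -1.96 to 2.01 (limma adjusted p = 0.993).

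**Figure D2:**
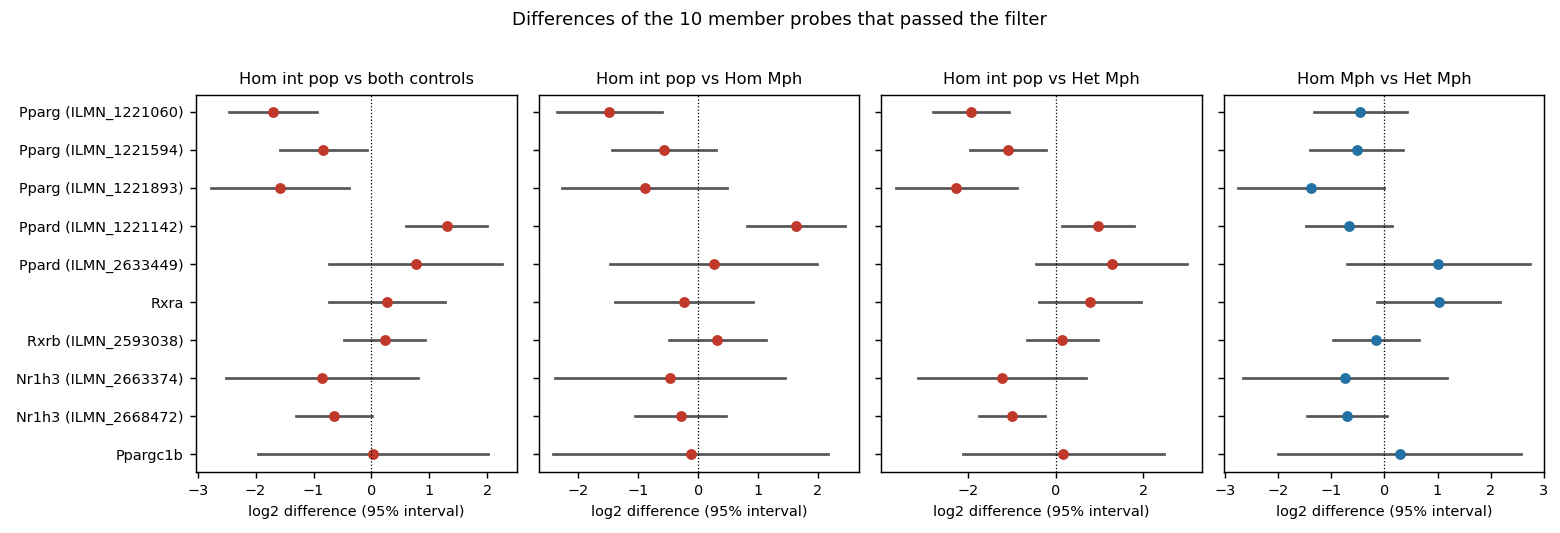
Log2 differences (x axis) of the 10 member probes that passed the filter (rows) in the 4 comparisons (panels), with limma's 95% intervals, which are not adjusted for multiple testing. In the first panel, Pparg ILMN_1221060 lies at -1.71 and Ppard ILMN_1221142 at 1.30, and 4 of 10 intervals leave out 0.

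Against Het Mph, 6 of the 10 member probes did not overlap between the groups, where 21.5% of all probes did not. All 3 Pparg probes and ILMN_2668472 of Nr1h3 were lower in every Hom int pop array than in any Het Mph array (11.7% of all probes were), and both Ppard probes were higher (9.88%). ILMN_2668472 and Ppard ILMN_2633449 would not have passed the filter without their detections in the group where they were higher. The filter thus favours their separation, which adds no support. The 3 Pparg probes share 1 transcript accession, so the 6 are not separate genes. Before background correction and normalization, both Ppard probes overlapped Het Mph. Against Hom Mph, 2 of 10 did not overlap (background 12.3%), and between Hom Mph and Het Mph 0 of 10 (background 12.2%), with 1 probe at an unadjusted limma p under 0.05. For the brightest probe of each gene, the group means ran Hom int pop, Hom Mph, Het Mph from low to high for Pparg and Nr1h3, Hom Mph, Het Mph, Hom int pop for Ppard and Rxrb, and Het Mph, Hom int pop, Hom Mph for Rxra and Ppargc1b. Among these neighbours, only the step to Hom int pop at Pparg (from Hom Mph) and at Ppard (from Het Mph) separated every array.

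Under other processing, the Pparg difference crossed the threshold in some settings and the Ppard difference in none of those run. Hom int pop minus both controls kept its sign for ILMN_1221060 under all 24 alternatives run (-1.92 to -1.08), and the probe was called under 6 of them, with limma adjusted p from 0.00491 to 0.737. Called alternatives included no background correction (-1.12, adjusted p = 0.0163) and the authors' normalized table (-1.08, adjusted p = 0.0135). ILMN_1221142 of Ppard also kept its sign under all 24 (0.35 to 1.45) and was called under 0 of them, with adjusted p from 0.0781 to 0.733. Without the 3 arrays that stood apart, which leaves 1 Hom int pop array, the differences were -1.24 for Pparg (adjusted p = 0.737) and 1.45 for Ppard (adjusted p = 0.733). The lone array is there assumed to vary like the other groups.

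**Figure D3:**
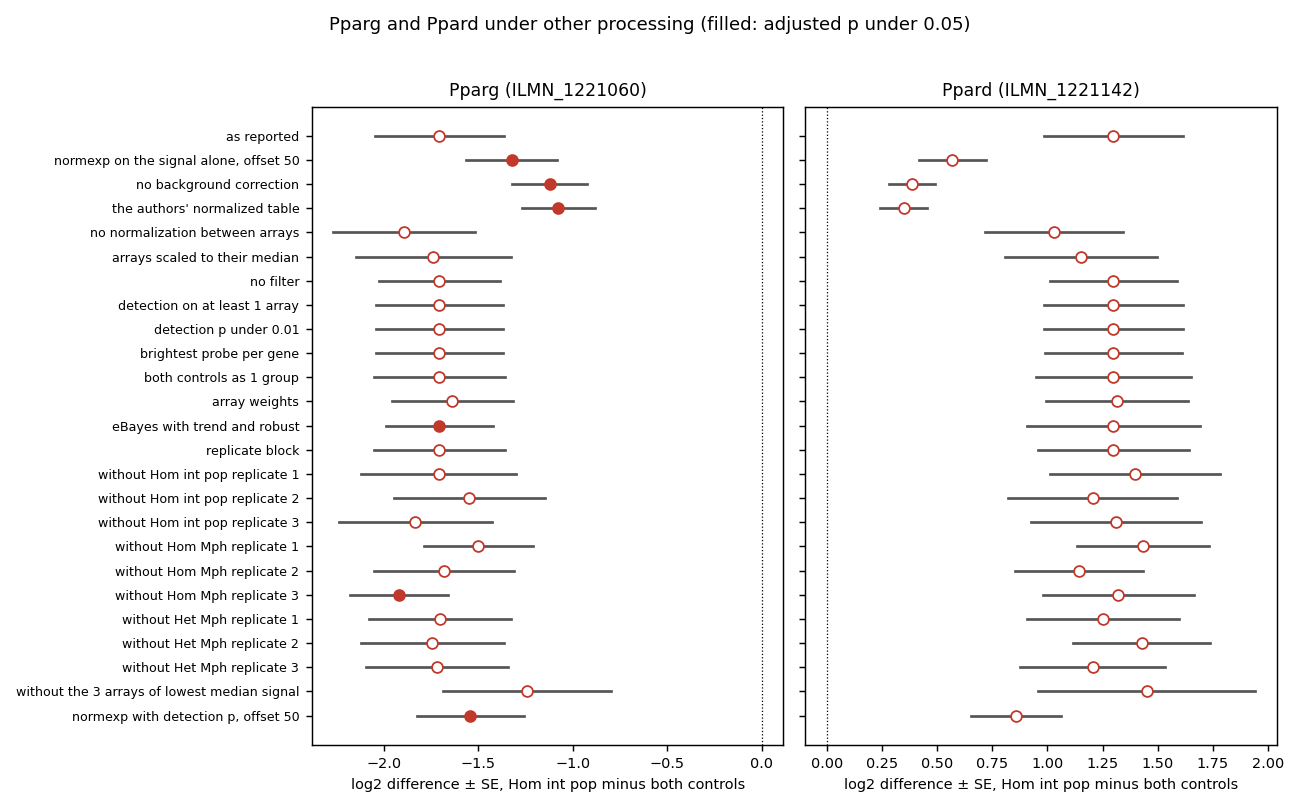
Log2 difference of Hom int pop from both controls (x axis, with its SE) for the brightest Pparg and Ppard probes as reported and under each alternative processing (rows). Filled points had an adjusted p under 0.05: 6 of 24 alternatives for Pparg and 0 of 24 for Ppard, with every Pparg value below 0 and every Ppard value above 0.

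The 5 named genes whose log2 signal most resembled that of Pparg ILMN_1221060 over the 9 arrays were Syne2 (Pearson r = 0.984), Wfdc21 (r = 0.980), Acaa1b (r = 0.977), Vkorc1l1 (r = 0.967) and Spata9 (r = 0.966). They were picked as the highest over all passing probes, each gene by its best probe, with predicted genes and clones left out. The arrays share group and chip number, and the values are a description.

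The genes around the receptors were set beside them in 5 lists, each gene by its brightest passing probe. Of the 11634 genes so tested against both controls, 66 were called higher (0.567%) and 23 lower (0.198%), and their median log2 difference was -0.07. Other nuclear receptors (22 of 32 passed) and other coactivators and corepressors (16 of 24 passed) had 0 calls, with 1 gene in each list at an unadjusted limma p under 0.05, against 1444 of the 11634 genes, and medians of -0.07 and 0.00. The orphan receptor Nr4a1 differed by 0.92 and the clock repressor Nr1d1 by 0.93, against -0.62 for Nr1i3, a xenobiotic receptor (limma adjusted p = 0.353, 0.504 and 0.613). Rxrg, the remaining RXR, was detected on 0 Hom int pop, 1 Hom Mph and 2 Het Mph arrays, so it has only a bound in Hom int pop and none of its differences passed. Among cofactors, Ncoa4, a coactivator that also serves ferritin turnover, differed by -1.32 (adjusted p = 0.128), Tbl1xr1, of the NCoR complex, by -0.91 (0.444), and the p160 coactivators Ncoa2 and Ncoa1 by -0.53 and -0.42 (0.526 and 0.575).

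Genes of ligand supply (12 of 22 passed, median -0.02) had 0 calls against both controls and 5 genes at an unadjusted limma p under 0.05. Ptgs2, the inducible cyclooxygenase that starts prostaglandin synthesis, rose against Het Mph by 3.40 on the log2 scale (10.5-fold, SE 0.58, limma adjusted p = 0.026). Its log2 signal was 8.60, 8.33 and 8.70 in Hom int pop, 5.75, 6.06 and 8.31 in Hom Mph and 4.88, 5.36 and 5.22 in Het Mph. Ptgs2 was detected on 1 of the 3 Het Mph arrays, so this fold rests on a group near background. Hom Mph replicate 3 again lay nearest to Hom int pop, and against both controls the difference of 2.62 did not pass (adjusted p = 0.0561). Hpgd, which degrades prostaglandins, differed by 1.96 (adjusted p = 0.181), Ch25h, which makes the LXR ligand 25-hydroxycholesterol, by 0.83 (0.178), and Lpl, lipoprotein lipase, by -0.67 (0.273).

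PPAR target genes (21 of 30 passed) had 0 called higher and 2 called lower against both controls, with 6 at an unadjusted p under 0.05. Their differences were 3 positive and 18 negative with a median of -0.27, beside 5044 positive and 6590 negative with a median of -0.07 over all genes. Acaa1b, a peroxisomal thiolase, fell 21.7-fold (log2 difference -4.44, SE 0.55, limma adjusted p = 0.00671). It read 5.21, 4.38 and 6.52 in Hom int pop, 10.30, 9.56 and 8.05 in Hom Mph and 10.08, 10.44 and 10.44 in Het Mph. Acaa1b was detected on 2 of the 3 Hom int pop arrays, so its fold rests in part on signal at background. Cidec, a lipid droplet protein, was not detected in Hom int pop and was at least 7.99-fold lower than in both controls (adjusted p = 0.0197). Its values of 4.28, 4.70 and 4.28 in Hom int pop stood against 8.41, 6.06 and 5.69 in Hom Mph and 8.71, 9.23 and 8.96 in Het Mph, with no overlap. Ech1, an enzyme of fatty acid oxidation, differed by -1.31 (adjusted p = 0.0884). With Cidec at its bound the list's median was the same. Beside these, 3 of the 9 alveolar macrophage markers that passed were called lower in Hom int pop (Krt19, Siglecf and Marco), and their part in the target values was not tested.

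LXR target genes (14 of 20 passed, with Nr1h3 itself among the list) had 1 called higher and 0 lower, with 6 at an unadjusted p under 0.05, 7 positive and 7 negative differences and a median of -0.15. Apoe, the apolipoprotein of cholesterol efflux, rose 7.50-fold against both controls (log2 difference 2.91, SE 0.36, limma adjusted p = 0.00698). Its log2 signal was 11.78, 11.49 and 11.50 in Hom int pop, 9.02, 10.13 and 10.35 in Hom Mph and 6.87, 8.04 and 7.67 in Het Mph, and the 3 groups did not overlap. Smpdl3a, a phosphodiesterase, differed by 0.75, Abca9, a transporter, by 0.90, and Pltp, the phospholipid transfer protein, by -0.74 (adjusted p = 0.209, 0.217 and 0.282). The remaining genes at an unadjusted p under 0.05 were lower: Abcg1 (-0.75, adjusted p = 0.386) and Scd1 (0.376), which was detected in Hom Mph alone. Abca1 differed by 0.04 (adjusted p = 0.984), and was detected on 1 Hom int pop, 3 Hom Mph and 0 Het Mph arrays. Of the 8 monocyte and interstitial macrophage markers that passed, 2 were called higher (Mmp12 and C1qb), 1 was called lower (Fcgr4) and 5 were not called, and of the 3 neutrophil markers 1 was called higher (Mmp8). Mmp12 and Mmp8 were also called higher in Hom Mph than in Het Mph, and 0 markers of these 2 lists were called against Hom Mph. The part of these markers in the Apoe value was not tested. Against Het Mph, where 0.808% of genes were called higher and 0.266% lower, Acaa1b, Cidec and Apoe were called again in the same directions. Against Hom Mph, where 0.181% of genes were called, 0 genes of the 5 lists were called by limma, with 0, 1, 4, 6 and 4 at an unadjusted p under 0.05 in the order of the lists above, against 927 of all 11634 genes.

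**Figure D4:**
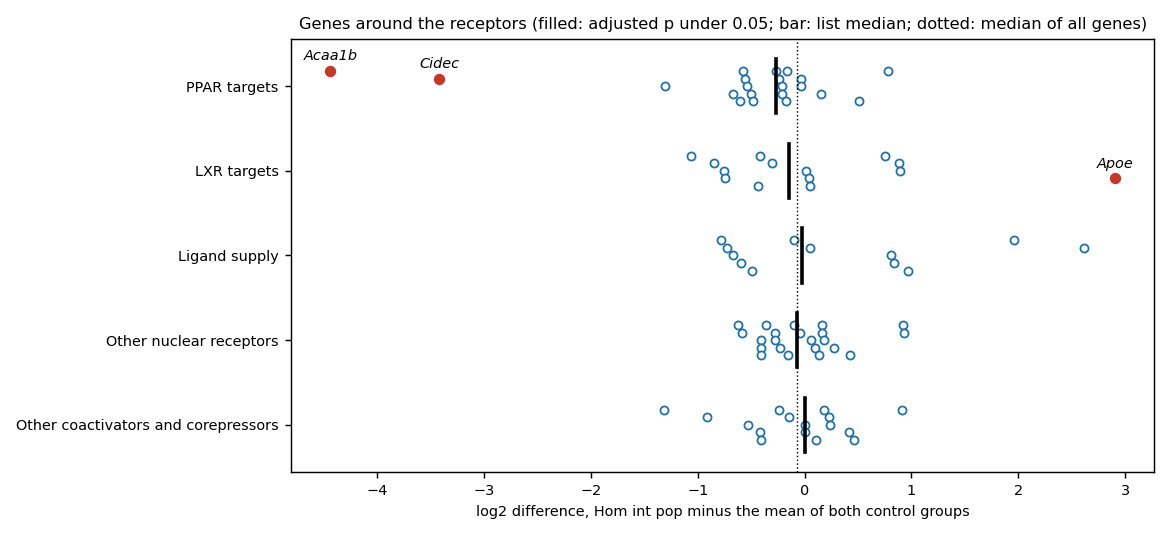
Log2 difference of Hom int pop from both controls (x axis) for each passing gene of the 5 lists around the receptors (rows). Filled points had an adjusted p under 0.05 (Acaa1b, Cidec and Apoe), bars mark list medians of -0.27 to 0.00, and the dotted line marks the median of all genes at -0.07.

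Calls of Acaa1b, Cidec, Apoe and Ptgs2 depended on the arrays kept and on the processing. Without the 3 arrays that stood apart, the log2 differences from both controls were -2.84, -3.19 and 2.57, and each missed the threshold (limma adjusted p = 0.504, 0.272 and 0.471). Leaving out Hom int pop replicate 1 or replicate 2 ended the calls of Acaa1b (limma adjusted p = 0.0693 and 0.0507), Apoe (0.0693 and 0.0507) and Cidec (0.135 and 0.0916). Cidec was also lost without Hom int pop replicate 3 (0.0751) or any of the 3 Het Mph arrays (0.0501 to 0.0606), and with both controls fitted as 1 group Cidec (0.107) and Apoe (0.126) missed the threshold. The call of Ptgs2 against Het Mph was lost when any 1 of the Hom int pop or Het Mph arrays was left out (0.077 to 0.113). Without the filter on dim probes, Acaa1b (0.0518) and Cidec (0.0901) missed the threshold against both controls, and Cidec (0.053) and Ptgs2 (0.0968) against Het Mph. Lyz2, which encodes lysozyme M, had 3 probes, none of which passed: they were detected on 0 Hom int pop arrays, 0 Hom Mph arrays and on 1 or 2 of the 3 Het Mph arrays.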

How the data were processed

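Gene expression was measured on 9 single-colour Illumina beadchip arrays in 3 groups of 3, grouped by sample title, genotype and cell type labels. The authors deposited a non-normalized table with an intensity and a detection p-value for every probe, and a second table of normalized intensity. How either was computed is not stated in the sources used here. Sorted cells were lysed at once and their RNA was amplified as cDNA, per the labels' protocols, so values reflect amplified RNA.

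Intensities were background corrected with limma 3.58.1 (R 4.3.3) by normexp informed by the detection p-values (offset 16), quantile normalized and taken to log2. This assumes that detection p-values are ranks against negative control probes, for which some are too small, so other corrections were run. Probes detected (p under 0.05) on 3 or more arrays were kept. lmFit and eBayes were fitted with 1 mean per group over all 9 arrays, with Benjamini-Hochberg adjustment over all 21946 kept probes. Where all arrays of a group were not above background, a fold is a bound, written "at least". For the dim group it takes, on each array, the probe's own signal or the lowest signal of any detected probe, whichever is higher. In arrays simulated for Hom int pop against both controls (21946 probes), 2% of probes changed by 1 on the log2 scale and 74% of those changed by 2 were called, beside 3 unchanged probes. The simulation changed 100 probes by each size, drew normal noise of equal spread in all groups and left all other probes unchanged. Real spreads were unequal at Pparg, so these rates need not hold for the real arrays.

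Probe symbols came from the platform annotation, updated through RefSeq (GRCm38.p6). The members and the lists were chosen with earlier results of these data known. Besides every member, the text names from each list up to 4 genes with the smallest p against both controls and every called gene, the 5 genes most like Pparg, and Siglecf and Lyz2. Abcg1, Scd1 and Abca1 of the LXR targets were added to these. Krt19, Krt79, Marco, Itgax, Mrc1, Car4, Chil3, Cd9, Mmp12, C1qb, Fcgr4, Mmp8, Mmp9, S100a8, S100a9, Ccr2, Fabp4, C1qc, Itgam, Cxcr2 and Retnlg are named as markers. No column of samples was left out. The alternatives changed the background correction, the normalization, the filter, the probes per gene, the arrays fitted, the array weights, the variance model and a replicate block, and left out each array in turn. A further 3, chosen after seeing the data, left out the 3 arrays of lowest median signal, blocked the 6 homozygous arrays by number, and kept the detection p-values with an offset of 50.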

Additional observations from a re-analysis of the deposited data

How the results depend on the processing

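The number of arrays and the signal over background limit these results: 5 of 15 member probes lay too near background to test. Pparg (-1.71 against both controls) was also called with normexp on the signal alone (-1.32), no background correction (-1.12), the authors' normalized table (-1.08), trend and robust variances (adjusted p = 0.00491, difference -1.71) and normexp with detection p and an offset of 50 (-1.54), and leaving out 1 array gave -1.92 to -1.50. In this order of settings, calls over all probes were 292, 401, 385, 429 and 230 against both controls (155 as reported), 423, 507, 469, 539 and 346 against Het Mph (219) and 71, 89, 86, 96 and 57 against Hom Mph (37). Hom Mph against Het Mph (5) gave 17 in the authors' table, 44 with trend and robust variances, 18 with arrays scaled to their median, 9 with array weights, 3 with an offset of 50, no normalization between arrays or only the 2 groups, and 2 without the filter. Member calls summed over the comparisons were 0 as reported, 2 in each of these 5 settings, 1 with array weights and 0 to 4 leaving out 1 array (4 without Hom Mph replicate 3), and all were Pparg probes. Fitting only Hom int pop and Het Mph called 2 Pparg probes. The brightest probe per gene gave 94, 131 and 23 calls, from fewer features tested, and only the 2 groups gave 7 against Hom Mph. Leaving out 1 array gave 26 to 181, 53 to 280, 2 to 32 and 1 to 9 calls in the 4 comparisons, and against both controls they fell short of the reported count by over 1.5 times without Hom int pop replicate 1 (26), 2 (38) or 3 (102) and without Het Mph replicate 1 (90), 2 (96) or 3 (83). Leaving out the 3 arrays that stood apart gave 0, 3, 0 and 0. Without normalization between arrays the median difference of all probes against both controls was -0.29, not -0.07, and the calls split 71 higher and 48 lower (59.7% higher, against 76.1%). Against Hom Mph that split was 52.9% higher, against 67.6%, and for Hom Mph against Het Mph 100% against 80%. Leaving out 1 array also moved the split, to 10 higher and 16 lower (38.5% higher) against both controls and to 0 and 2 against Hom Mph without Hom int pop replicate 1. Against Hom Mph it was 6 and 6 without Hom int pop replicate 2, and 16 and 16 without Hom Mph replicate 3.

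Of the brightest probe of each member, the directions that turned were all of uncalled differences. Ppargc1b against both controls (0.03) turned to -0.118, -0.0850, -0.116, -0.190, -0.0942 and -0.0479 with normexp on the signal, no background correction, the authors' table, no normalization, median scaling and an offset of 50. Against Het Mph (0.17) it was -0.0723, -0.0655, -0.0890 and -0.0678 in the first 4 of these and -0.15 with array weights, which also gave 0.31 against Hom Mph (-0.12) and -0.46 between the controls (0.29). Leaving out 1 array gave Ppargc1b -0.36 to 0.74, -0.41 to 1.25, -0.84 to 0.63 and -0.43 to 1.38 against both controls, Het Mph and Hom Mph and between the controls. It gave Rxra -0.48 to 0.14 and Nr1h3 -1.17 to 0.44 against Hom Mph, and Rxrb -0.57 to 0.0655 between the controls. Without the 3 arrays that stood apart Nr1h3 was 0.55 against Hom Mph and Rxrb 0.0709 between the controls, and median scaling gave Rxrb 0.13 there. Of the other member probes, also uncalled where they turned, Pparg ILMN_1221893 reached 0.188, Ppard ILMN_2633449 -0.306 and Nr1h3 ILMN_2668472 0.0255 against Hom Mph, and Ppard ILMN_2633449 -0.0837 between the controls. The causes were not tested.

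Same-numbered arrays of different groups shared deviations from their group means weakly (r = -0.06 to 0.24 over 9 pairs), with 6 of 9 same-numbered pairs and 3 of 18 others over 0.1. Those 6 were all the pairs numbered 1 and 3 (0.12 to 0.24), including pairs of Hom Mph with Het Mph, whose genotype labels differ. Pairs numbered 2 ran from -0.06 to 0.003. The labels do not state what a shared number stands for, so the main fit held no block. These values do not settle it, and the cause was not tested. With the replicate block the counts of calls were 113, 164, 26 and 3, Pparg against both controls had an adjusted p of 0.105, and the 6 homozygous arrays alone gave 0 calls under the block.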
